A study of Mus musculus with 18 samples.

Results

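The major urinary protein (Mup) genes were examined in the livers of 18 male C57BL/6J mice, in 3 groups of 6, each mouse sequenced as 1 RNA library. The 9 genes described are Mup1, Mup2, Mup3, Mup7, Mup10, Mup17, Mup20, Mup21 and the pseudogene row Mup-ps20, taken by symbol from a count table of 55487 rows. The table held 49 Mup rows in all, of which 22 were annotated as coding and 27 as pseudogenes. The 9 genes were selected with their measured counts in these libraries known, so their levels and fold changes are descriptions. Calls below that rest on an adjusted p over all genes are descriptions too, and no p-value is printed for these 9.

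All 18 mice were bought at 7 weeks of age and received AAV8, an adeno-associated virus, 1 week before the diets began. The vector drove its cargo from the hepatocyte promoter TBG, and every control mouse therefore also carried a vector, with green fluorescent protein (GFP) as cargo. CON-GFP mice ate a purified diet for 16 weeks. FPC-GFP mice ate for the same time a high-fat diet with added fructose, palmitate and cholesterol (FPC) and drank fructose-glucose water. FPC-LIPA mice had that diet and water, and their vector carried human LIPA, which encodes lysosomal acid lipase. Livers of mice with the LIPA vector on the purified diet were not analysed here. FPC-GFP was compared with CON-GFP for the diet, and FPC-LIPA with FPC-GFP for the lipase on that diet, while FPC-LIPA with CON-GFP combines both.

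Major urinary proteins are small lipocalins, barrel-shaped proteins with a pocket for volatile pheromones. Hepatocytes of adult male mice secrete them in large amounts into the blood, the kidney passes them into urine, and the scent marks that carry them signal sex and individual identity. Their transcription in liver depends on the pulsatile growth hormone of males acting through the receptor GHR and the factor STAT5B, and on androgens, glucocorticoids and thyroid hormone. The genes lie side by side in 1 array of recent copies, so many of them differ at few bases.

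In GRCm38, 48 of the 49 rows lay in chr4:59956804-62150863, a span of 2.19 Mb, and Mup-ps22 lay on chromosome 11. All 9 described genes were in the chromosome 4 cluster on the minus strand. Mup7 (ENSMUSG00000073842, chr4:60066469-60070475), Mup2 (ENSMUSG00000078688, chr4:60135932-60154289), Mup1 (ENSMUSG00000078683, chr4:60498012-60501960), Mup10 (ENSMUSG00000078680, chr4:60578260-60582199) and Mup17 (ENSMUSG00000096688, chr4:61591929-61595871) sit among the near-identical copies. Mup-ps20 (ENSMUSG00000084309, chr4:62012412-62014857), Mup20 (ENSMUSG00000078672, chr4:62050234-62054158), Mup3 (ENSMUSG00000066154, chr4:62083476-62087342) and Mup21 (ENSMUSG00000066153, chr4:62147932-62150863) lie at the end of the array, with Mup-ps21 between Mup-ps20 and Mup20.

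The coding sequences show how far reads can tell the members apart. Among Mup1, Mup2, Mup7, Mup10 and Mup17 the coding sequences were 98.7% to 99.4% identical, and each is 540 bases long. Against Mup3 (552 bases), Mup20 (543 bases) and Mup21 (543 bases) these 5 were 82.1% to 91% identical. Mup3 and Mup21 were the closest pair of the others, at 94.7%. The stretch of 60 coding bases below, from exon 3 of each gene, is shown because it holds the most positions that vary among the 8 coding members, 20 in all. Capitals mark bases that differ from Mup17.
Mup17, chr4:61594365-61594424: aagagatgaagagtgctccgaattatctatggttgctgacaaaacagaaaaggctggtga
Mup1, chr4:60500453-60500512: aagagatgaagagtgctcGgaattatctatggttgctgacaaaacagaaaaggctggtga
Mup20, chr4:62052650-62052709: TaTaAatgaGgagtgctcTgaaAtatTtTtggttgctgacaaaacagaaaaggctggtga
Mup3, chr4:62085973-62086032: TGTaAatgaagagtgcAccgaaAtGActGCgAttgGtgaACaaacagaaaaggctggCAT
Mup21, chr4:62149368-62149427: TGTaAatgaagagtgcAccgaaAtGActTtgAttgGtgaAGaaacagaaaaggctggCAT
Mup7 and Mup10 have the same 60 bases as Mup17, and Mup2 has the same as Mup1. Mup20 differs from Mup17 at 8 of these positions, Mup21 at 16 and Mup3 at 17.

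Whether a read belongs to 1 gene was judged from all windows of 100 bases in each gene's annotated transcripts. For Mup7, 76.1% of windows were found unchanged in a transcript of another gene, and for Mup2, Mup10, Mup17 and Mup1 the shares were 75.5%, 73.4%, 59.4% and 55.7%. These windows recurred in 16 or 17 other genes. Mup20 shared 38.8% of its windows, with the pseudogene Mup-ps19 alone. Mup21 and Mup3 shared 4.5% and 2.23%, with each other, and Mup-ps20 shared none. How reads that map to several places were counted is not given in the sources used here, so levels of Mup1, Mup2, Mup7, Mup10 and Mup17 are uncertain as single genes. Counts of Mup20 and Mup-ps19 can likewise be exchanged, while Mup3, Mup21 and Mup-ps20 are little affected.

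Promoters from RefSeq (GRCm38.p6, 250 bases before to 50 after each gene's start) were matched for 6 of the 9 members. They are shown because the copies differ in the A-rich tract that runs up to the TATA box, the motif that places the start of transcription. Capitals mark the motif TATATAA, and the sequences are written on the minus strand, 5′ to 3′.
Mup2, chr4:60139874-60139962: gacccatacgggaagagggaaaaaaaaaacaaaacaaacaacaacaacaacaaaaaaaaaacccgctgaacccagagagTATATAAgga
Mup17, chr4:61595848-61595933: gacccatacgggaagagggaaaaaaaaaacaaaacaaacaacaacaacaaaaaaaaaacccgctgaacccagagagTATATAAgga
Mup3, chr4:62087319-62087370: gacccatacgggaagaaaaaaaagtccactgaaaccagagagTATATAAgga
Mup21, chr4:62150840-62150888: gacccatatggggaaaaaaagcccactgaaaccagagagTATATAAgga
The motif TATATAA, searched on both strands, was in 5 of 6 member promoters (Mup2, Mup10, Mup17, Mup3 and Mup21) and in 3.24% of 32851 promoters. ATCAAT, the core bound by ONECUT factors, was in 6 of 6 and in 7.54% of promoters. TGTTCT, part of the site of the glucocorticoid and androgen receptors, was in Mup3 and Mup21 and in 19% of promoters. TTCNNNGAA, the STAT5 motif, and TTGCNNAA, a C/EBP motif, were in 0 of 6, against 8.3% and 10.8% of promoters. The 6 promoters are copies of each other, so these are not independent matches.

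Total counts per library were 16632146 to 37739301. The 3 shallowest libraries were CON-GFP 2, FPC-GFP 20 and FPC-LIPA 37, and in the sample labels these 3 and CON-GFP 1 carry an S number outside the 55 to 68 of the other libraries. What that number stands for is not given in the sources used here. Libraries FPC-LIPA 36, 37 and 39 stood apart: ribosomal protein genes took 6.47% to 8.18% of their counts, against 2.15% to 2.93% in FPC-LIPA 31, 33 and 34 and 1.42% to 2.52% in the other groups. Fits with mice 31, 33 and 34 alone, a choice made after the data were seen, are given beside FPC-LIPA results whose call or direction rests on the other 3 mice. The row of mouse Lipa lay between 202 and 406 CPM (counts scaled to an equal library total) in all livers and does not check the vector, which carried the human gene. Hepatocyte markers were present in every library, with a summed level over 14 genes of 98936 to 145608 CPM in CON-GFP, 85859 to 118153 in FPC-GFP and 74180 to 109608 in FPC-LIPA. Over 10 monocyte and macrophage markers the sums were 71.6 to 128, 148 to 399 and 477 to 951 CPM, and over 7 Kupffer cell markers 116 to 249, 354 to 601 and 441 to 956 CPM. No gene of these 3 lists was at 0 in a whole group. Their part in the Mup results was not tested, and in whole liver fewer hepatocytes and less RNA per hepatocyte cannot be told apart.

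Together the 49 Mup rows had a lower mean on the FPC diet, at 1.49% ± 0.980 of counts against 3.07% ± 1.92 in CON-GFP (SD, n = 6), and scattered more widely around 2.43% ± 1.72 when LIPA was added. In CON-GFP they took 2.31%, 6.07%, 4.87%, 1.82%, 2.05% and 1.33% of all counts in mice 1, 2, 3, 6, 7 and 8. In FPC-GFP they took 1.77%, 0.919%, 1.00%, 0.973%, 0.897% and 3.37% in mice 11, 12, 13, 16, 19 and 20. In FPC-LIPA they took 1.80%, 0.618%, 0.816%, 2.39%, 4.44% and 4.54% in mice 31, 33, 34, 36, 39 and 37. The groups overlapped, and in each group the highest library was one with an S number outside 55 to 68 (mice 2, 20 and 37). FPC-LIPA mice 36, 37 and 39 held the 3 highest values of their group.

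On the scale of log2 CPM the difference of the summed rows between FPC-GFP and CON-GFP was -1.21 ± 0.49 (SE, 6 mice per group). Within S numbers 55 to 68 this difference was -1.18 ± 0.47. In FPC-LIPA against FPC-GFP it was 0.69 ± 0.67, hardly more than its SE, and for FPC-LIPA mice 31, 33 and 34 alone it turned to -0.51 ± 0.53. In FPC-LIPA against CON-GFP it was -0.53 ± 0.70, and -1.72 ± 0.57 for mice 31, 33 and 34.

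By counted reads, Mup3 was the highest member in CON-GFP, at 12224 ± 5716 CPM per kb of merged exon (SD, n = 6), and it was above the next member in 6 of 6 mice. Mup7 (4641 ± 5308), Mup17 (3300 ± 3403) and Mup20 (3133 ± 984 CPM per kb) came next, and the ranges of these 3 overlapped. Mup21 (521 ± 327) was below Mup20 in every mouse. Mup1 (121 ± 122), Mup2 (37.4 ± 55.9), Mup-ps20 (16.1 ± 19.1) and Mup10 (6.96 ± 4.97 CPM per kb) followed with ranges that overlapped from each to the next. In FPC-GFP the order was Mup3 (3960 ± 1454), Mup20 (2659 ± 691), Mup17 (1682 ± 1793) and Mup7 (771 ± 1462 CPM per kb), again with overlapping ranges. In FPC-LIPA Mup20 (12675 ± 11213 CPM per kb) stood before Mup3 (7192 ± 5945) in 6 of 6 mice, though the 2 ranges overlapped. Mup17 (671 ± 619 CPM per kb) came next and was below Mup3 in every mouse, and Mup7 was at 28.2 ± 25.8 CPM per kb. These orders are of counted reads, and how reads that map to several places were counted is not given. Mup7 shared 76.1% of its windows and Mup3 2.23%, so their order as genes is uncertain.

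**Figure D1:**
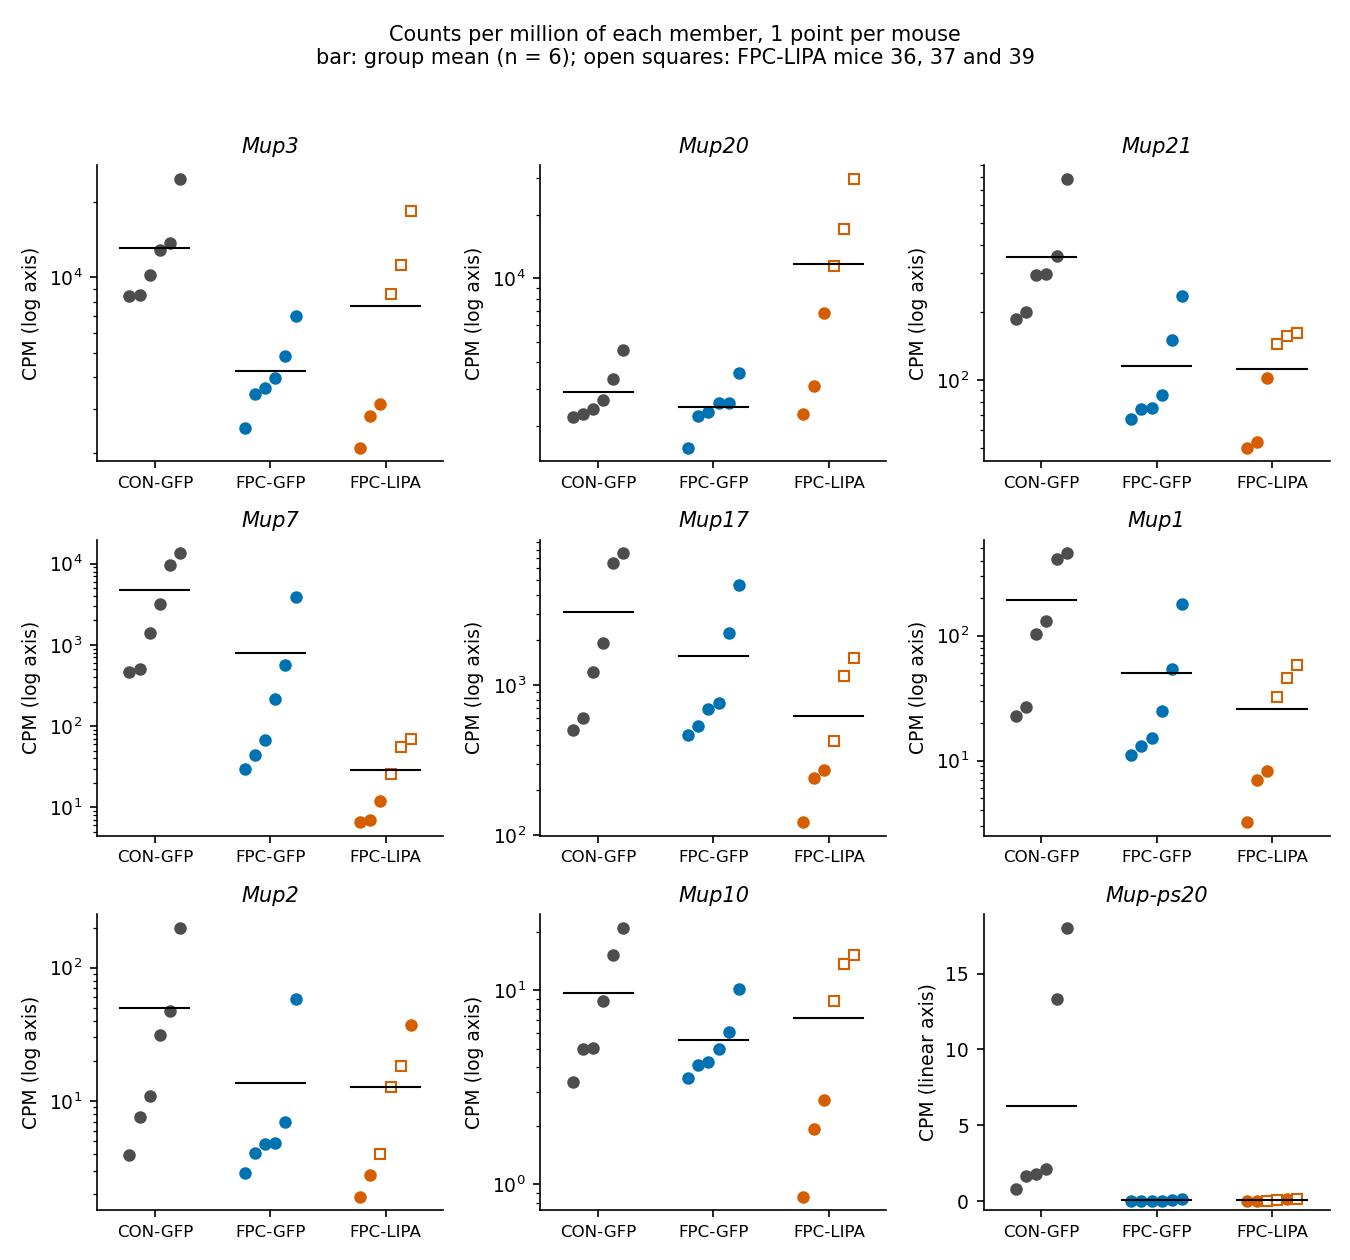
CPM of each of the 9 members (vertical axes, log except linear for Mup-ps20) in the 6 mice of CON-GFP, FPC-GFP and FPC-LIPA. Each point is 1 mouse, bars are group means, and open squares are FPC-LIPA mice 36, 37 and 39. Mup3 does not overlap between CON-GFP and FPC-GFP, beside 4.41% of all tested genes with no overlap and lower. Mup7 and Mup21 do not overlap between CON-GFP and FPC-LIPA, beside 4.84% of genes. Mup-ps20 passed the filter on low counts only through CON-GFP, and so had to be higher there.

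With the FPC diet, each of the 8 coding members had a negative log2 fold change, and 2 of 8 were called differentially expressed (DE, at least 2-fold and an adjusted p under 0.05 in edgeR's quasi-likelihood test over 14307 genes). These were Mup3 and Mup21, both DE lower, beside 2.44% of all tested genes DE lower. No member was DE higher, beside 4.76% of all genes. Of the coding members, Mup3 alone had no overlap between the groups, beside 4.41% of genes with no overlap and lower and 6.19% with no overlap and higher. The median log2 fold change of the 8 was -1.64 and that of all tested genes 0.01. The pseudogene row Mup-ps20 is left out of these counts, since it passed the filter on low counts only through CON-GFP, and so had to be higher there. Since the members were chosen on such values, nothing is read from these shares.

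Mup3 was at 12827, 24696, 13696, 10170, 8501 and 8438 CPM in CON-GFP mice 1, 2, 3, 6, 7 and 8. In FPC-GFP mice 11, 12, 13, 16, 19 and 20 it was at 4863, 3426, 3631, 3956, 2511 and 6991 CPM. Every FPC-GFP liver was below every CON-GFP liver. The log2 fold change was -1.64 ± 0.29, a 3.12-fold lower level.

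Mup21, the closest relative of Mup3 in this set, was at 295, 785, 356, 294, 200 and 187 CPM in CON-GFP. In FPC-GFP it was at 151, 67.4, 74.7, 85.6, 74.2 and 237 CPM, and its log2 fold change was -1.63 ± 0.38. Mouse 20 alone reached the CON-GFP range. The ratio of Mup3 to Mup21 counts was 39.3 ± 5.36 in CON-GFP and 40.2 ± 9.37 in FPC-GFP (SD, n = 6).

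Mup20, known as darcin, the urinary pheromone that attracts females to male scent, was at 2266, 4574, 3337, 2642, 2414 and 2209 CPM in CON-GFP. In FPC-GFP it was at 2562, 1579, 2223, 2321, 2571 and 3548 CPM. The groups overlapped widely, and the log2 fold change was -0.25 ± 0.21. In both of these groups Mup20 varied less than any other member, with an SD of 31.4% of the mean in CON-GFP and 26.0% in FPC-GFP.

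The ratio of Mup20 to Mup3 counts, which does not depend on library scaling, separated the diets. It was 0.177 to 0.284 in CON-GFP and 0.461 to 1.02 in FPC-GFP, with means of 0.235 ± 0.0440 and 0.620 ± 0.205 (SD, n = 6). All FPC-GFP livers were above all CON-GFP livers. Mup3 alone also did not overlap between these groups, so the ratio restates the values above and is no separate result. Both genes were chosen with their counts known, and no share over other gene pairs was computed.

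Mup-ps20, an annotated pseudogene between Mup-ps19 and Mup-ps21, had 44, 206, 482, 21, 60 and 64 reads in CON-GFP. FPC-GFP had 0, 3, 0, 5, 0 and 0 reads and FPC-LIPA mice 31, 33, 34, 36, 39 and 37 had 0, 0, 4, 0, 3 and 1. In CPM these were 0.828 to 18.0 in CON-GFP, at most 0.151 in FPC-GFP and at most 0.136 in FPC-LIPA. The row was detected in 6 of 6 livers on the purified diet, and most livers on the FPC diet were at 0. Fitted log2 fold changes were -7.02 ± 1.05 for FPC-GFP and -6.91 ± 1.05 for FPC-LIPA against CON-GFP, and both rest on few reads in the lower group. The row passed the filter on low counts only through CON-GFP, so the direction of both was set in advance. The row was not tested between FPC-LIPA and FPC-GFP. In the annotation used here this row and Mup20 do not overlap, and strand handling is not given in the sources used here.

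Mup7, Mup1 and Mup2, which encode near-identical central urinary proteins, had large fold changes on the FPC diet with wide errors. Mup7 was at 3203, 13458, 9714, 504, 1419 and 469 CPM in CON-GFP while FPC-GFP livers were at 570, 218, 44.2, 67.5, 29.9 and 3852 CPM. Mouse 20 was the 1 FPC-GFP liver among the higher CON-GFP livers. The log2 fold change was -2.61 ± 1.16 over 6 mice per group, -4.71 without mouse 20 and -4.04 within S numbers 55 to 68, and it was DE in the last 2.

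Mup1 was at 131, 458, 411, 27.0, 103 and 22.7 CPM in CON-GFP while FPC-GFP livers were at 54.3, 25.1, 15.2, 13.0, 11.1 and 181 CPM. Mouse 20 was again the highest of its group. The log2 fold change was -1.96 ± 0.82, and -3.03 without mouse 20, where it was DE. Mup2 had a log2 fold change of -1.91 ± 0.94, and -3.42 without mouse 20, where it too was DE. Thus 5 of 8 coding members were DE lower without FPC-GFP mouse 20, beside 2.76% of all genes in that fit. The same 5 were DE lower within S numbers 55 to 68, beside 1.75% of all genes.

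Mup17 and Mup10 differed less on the diet. Mup17 was at 506 to 7583 CPM in CON-GFP, and in FPC-GFP at 468 to 4675 CPM, with medians of 1565 and 725 CPM and a log2 fold change of -0.99 ± 0.72. Mup10 was at 3.36 to 20.9 CPM and 3.52 to 10.1 CPM, with a log2 fold change of -0.83 ± 0.40. Neither was DE.

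**Figure D2:**
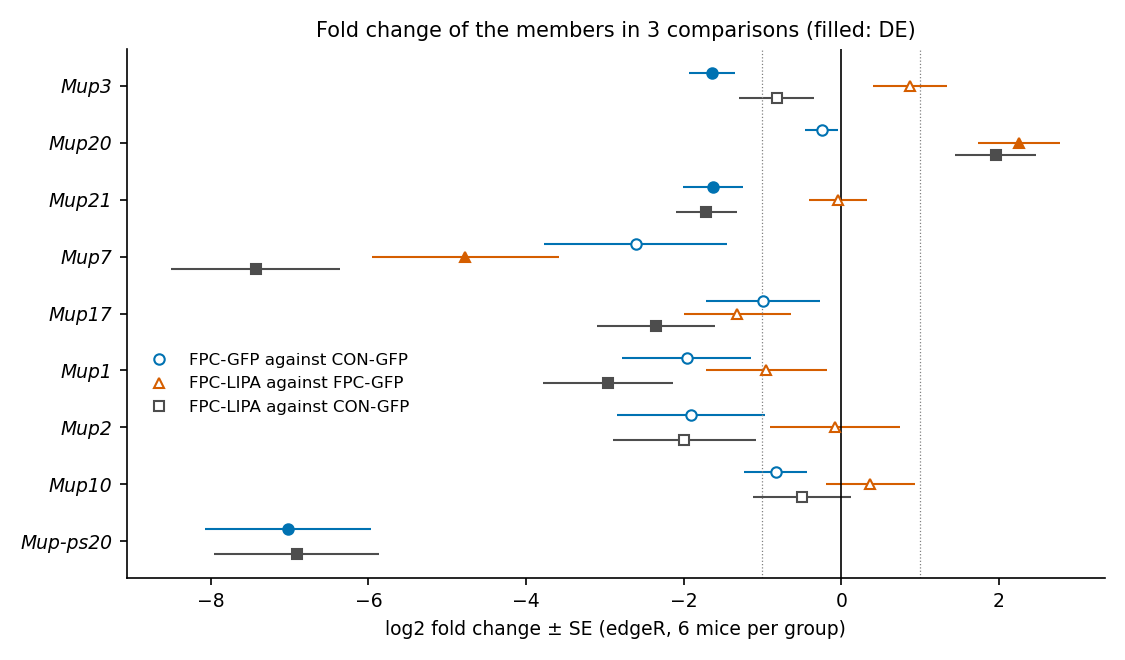
Log2 fold change with its SE (horizontal axis) of the 9 members in 3 comparisons, from edgeR with 6 mice per group. Filled symbols are DE, dotted lines mark a 2-fold change, and Mup-ps20 was not tested in FPC-LIPA against FPC-GFP. Mup20 is the 1 member on the positive side in both comparisons with FPC-LIPA.

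When LIPA was added on the FPC diet, the members differed in direction. Of 8 tested members, Mup20 was DE higher and Mup7 DE lower, beside 10.3% and 1.11% of 14620 genes. Groups did not overlap for 0 of 8 members, beside 3.81% of genes with no overlap and higher and 3.76% with no overlap and lower. The members' median was -0.06 and that of all tested genes 0.04. For FPC-LIPA mice 31, 33 and 34 alone 0 members were DE, beside 0.761% of all genes DE in either direction. The count was also 0 within S numbers 55 to 68, beside 0.651%.

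Mup20 was at 6876, 2266, 3099, 11428, 17171 and 29733 CPM in FPC-LIPA mice 31, 33, 34, 36, 39 and 37. Mice 31, 36, 37 and 39 were above all FPC-GFP livers, and mice 33 and 34 were within the FPC-GFP range. The log2 fold change was 2.26 ± 0.52 against FPC-GFP and 1.96 ± 0.51 against CON-GFP, DE in both. For mice 31, 33 and 34 alone these were 0.73 and 0.49, not DE, and within S numbers 55 to 68 they were 1.85 and 1.58, not DE.

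The pseudogene Mup-ps19, which shares 76.7% of its own windows with Mup20, was at 3382 ± 3415 CPM in FPC-LIPA and 672 ± 533 CPM in FPC-GFP (SD, n = 6), with a log2 fold change of 2.34 ± 0.69. It was at 2848, 284, 646, 2748, 4055 and 9715 CPM in FPC-LIPA mice 31, 33, 34, 36, 39 and 37, and 282 to 1714 CPM in FPC-GFP. Mice 33 and 34 were thus within the FPC-GFP range. For mice 31, 33 and 34 alone the log2 fold change was 0.91 ± 0.64, and it was 2.18 ± 0.58 within S numbers 55 to 68, DE in neither. Mup20 counts were 3.95 ± 1.63 times those of Mup-ps19 in CON-GFP, 4.64 ± 1.59 times in FPC-GFP and 4.44 ± 1.94 times in FPC-LIPA.

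Mup3 was at 3126, 2098, 2802, 8588, 18307 and 11162 CPM in FPC-LIPA mice 31, 33, 34, 36, 39 and 37. Mice 36, 39 and 37 were above all FPC-GFP livers and within the CON-GFP range, while mice 31, 33 and 34 were at the lower end of FPC-GFP or below it. The log2 fold change against FPC-GFP was 0.87 ± 0.47, not DE, and it was -0.65 for mice 31, 33 and 34 alone. Against CON-GFP it was -0.82 ± 0.48, not DE, and -2.29 for mice 31, 33 and 34 alone, DE.

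The Mup20 to Mup3 ratio was 2.20, 1.08, 1.11, 1.33, 0.938 and 2.66 in FPC-LIPA mice 31, 33, 34, 36, 39 and 37. Of the FPC-GFP livers, mouse 19 at 1.02 was within this range and the other 5, at 0.461 to 0.612, were below it. Unlike the levels, the ratio did not set mice 36, 37 and 39 apart from 31, 33 and 34.

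Mup7 was at 11.9, 7.06, 6.56, 25.4, 55.7 and 68.4 CPM in FPC-LIPA mice 31, 33, 34, 36, 39 and 37. Mice 31, 33, 34 and 36 were below all FPC-GFP livers, and all 6 were below every CON-GFP liver. The log2 fold change was -4.77 ± 1.19 against FPC-GFP and -7.43 ± 1.07 against CON-GFP, DE in both. Without FPC-GFP mouse 20 the first was -2.68 and not DE. For mice 31, 33 and 34 alone it was -6.57 and not DE.

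As a share of all Mup counts, Mup7 took 2.78% to 19.4% in CON-GFP, 0.392% to 12.5% in FPC-GFP and 0.0802% to 0.132% in FPC-LIPA. All 6 FPC-LIPA livers, 36, 37 and 39 included, lay in this narrow band. Its close copy Mup17 took 1.55% to 3.15% of Mup counts in FPC-LIPA and 3.33% to 14.3% in CON-GFP. The ratio of Mup7 to Mup17 counts was 0.834 to 2.06 in CON-GFP, 0.0581 to 0.824 in FPC-GFP and 0.0273 to 0.0598 in FPC-LIPA. It was lower in every FPC-GFP liver than in every CON-GFP liver, with FPC-GFP mouse 20 nearest to them. Both genes were chosen with their counts known, and no share over other gene pairs was computed, so this is a description.

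Mup17 was at 271, 122, 240, 427, 1527 and 1143 CPM in FPC-LIPA, with a log2 fold change of -1.32 ± 0.68 against FPC-GFP, not DE. Mup1 was at 3.21 to 58.6 CPM and Mup2 at 1.92 to 37.3 CPM, with log2 fold changes of -0.95 ± 0.77 and -0.08 ± 0.82. Mup10 was at 0.864 to 15.1 CPM and Mup21 at 50.1 to 162 CPM, with log2 fold changes of 0.37 ± 0.56 and -0.04 ± 0.37. None of these 5 was DE. For mice 31, 33 and 34 alone the log2 fold changes of Mup17, Mup1, Mup2, Mup10 and Mup21 were -2.89, -3.03, 0.05, -1.58 and -0.74, again not DE. Mup1, Mup10, Mup17 and Mup21 were higher in mice 36, 37 and 39 than in 31, 33 and 34, and Mup2 was highest in mouse 33.

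Against CON-GFP, 4 of 8 coding members were DE lower in FPC-LIPA (Mup1, Mup7, Mup17 and Mup21) and Mup20 was DE higher, beside 3.25% and 11.8% of 14433 genes. Groups did not overlap for Mup7 and Mup21, both lower, beside 4.84% of genes with no overlap and lower and 6.26% with no overlap and higher. Log2 fold changes of Mup1, Mup17 and Mup21 were -2.96 ± 0.83, -2.35 ± 0.75 and -1.71 ± 0.39. Within S numbers 55 to 68, Mup7 and Mup21 were the coding members DE, both lower, beside 1.91% of all genes. With mice 31, 33 and 34 alone, 6 of the 8 were DE lower, Mup3 and Mup10 being added, and 0 higher. This comparison shares its libraries with the other 2 and is no separate evidence.

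**Figure D3:**
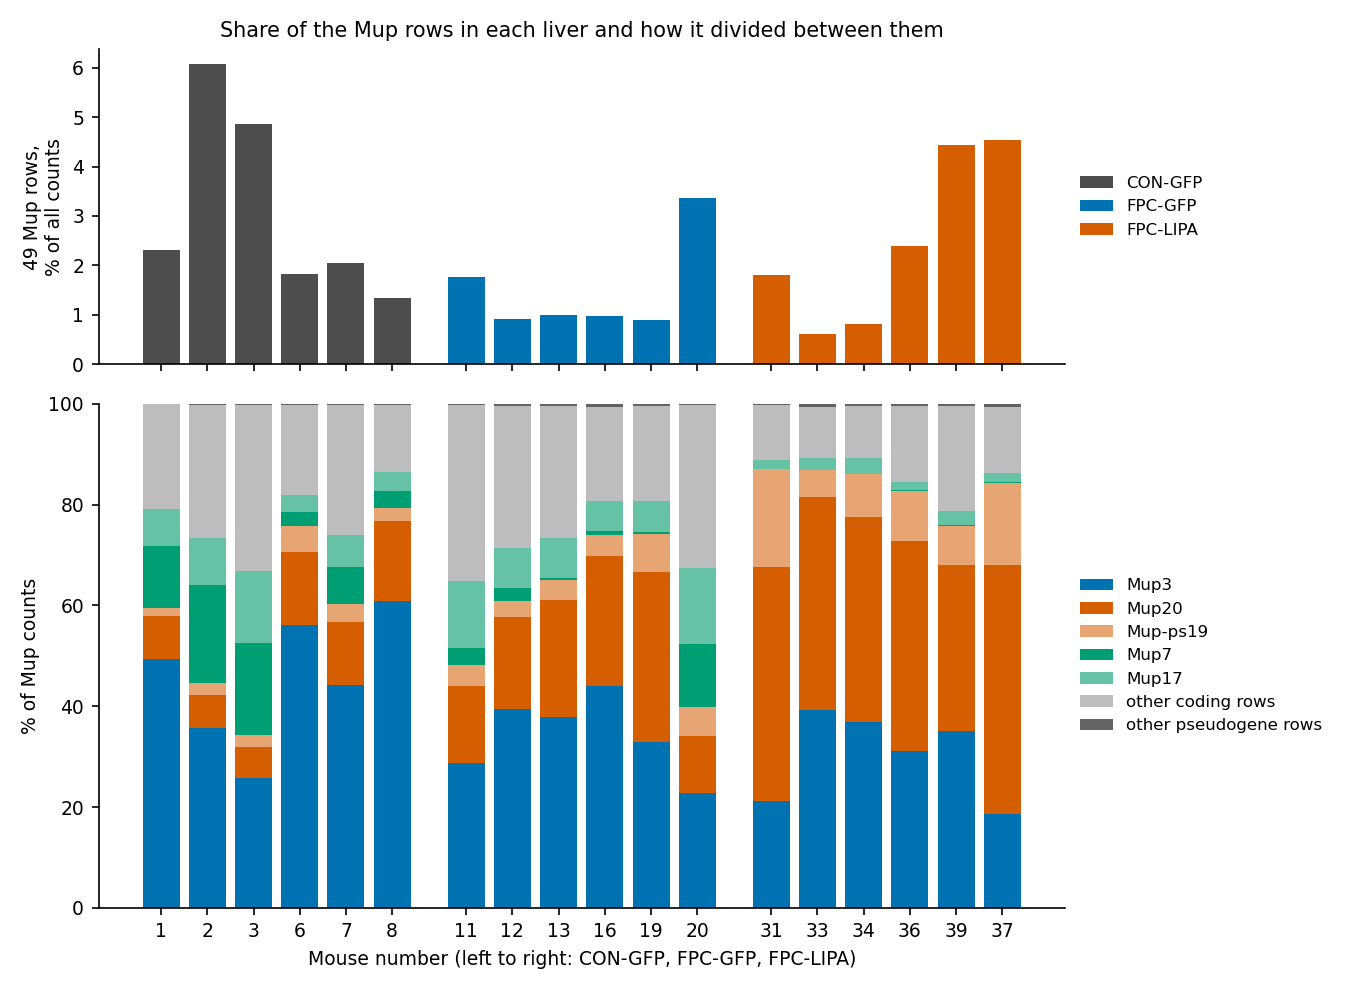
Share of the 49 Mup rows in all counts (upper axis, percent) and division of the Mup counts between rows (lower axis, percent) in each of the 18 livers, numbered by mouse. Mup20 fills 32.9% to 49.5% of Mup counts in FPC-LIPA and Mup7 at most 0.132%, although the total in mice 36, 37 and 39 is within the range of CON-GFP.

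The division of the Mup counts between genes differed from group to group. Mup20 took 10.8% ± 4.15 of Mup counts in CON-GFP, 21.3% ± 7.99 in FPC-GFP and 42.3% ± 5.68 in FPC-LIPA (SD, n = 6). The ranges were 6.27% to 15.9%, 11.5% to 33.7% and 32.9% to 49.5%. The 16 coding rows that share more than 50% of their windows with other genes together took 39.6% ± 17.7, 38.3% ± 14.1 and 15.1% ± 4.48. This sum is little affected by exchange of reads between close copies, but it would be too low if reads mapping to several places were left out. Its ranges were 19.0% to 64.8%, 24.3% to 59.2% and 11.5% to 23.6%. The FPC-LIPA range lay below that of FPC-GFP and overlapped that of CON-GFP. Mup3 took 45.3% ± 13.1, 34.3% ± 7.75 and 30.4% ± 8.57.

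Of the other 40 Mup rows, 25 were tested and 0 were DE between FPC-GFP and CON-GFP by edgeR's quasi-likelihood test (3 at an unadjusted p under 0.05, 0 DE by DESeq2 and 2 by edgeR's exact test). Of them 20 had a negative and 5 a positive log2 fold change, with a median of -0.68. The abundant central copies Mup11 (2259 and 749 CPM on average in CON-GFP and FPC-GFP), Mup19 (1573 and 817), Mup14 (1059 and 625) and Mup22 (817 and 363 CPM) had log2 fold changes of -1.61 ± 0.60, -0.96 ± 0.53, -0.78 ± 0.62 and -1.19 ± 0.72. Mup12 and Mup16 were at -1.78 ± 0.71 and -1.56 ± 0.83. Mup9, Mup13, Mup15, Mup18, Mup5 and the pseudogenes Mup-ps4, Mup-ps7, Mup-ps8, Mup-ps12 to Mup-ps15, Mup-ps19 and Mup-ps22 were also on the negative side. Mup6, Mup8, Mup-ps2, Mup-ps10 and Mup-ps16 were on the positive side, the largest being Mup-ps10 at 1.48 ± 0.77. Mup11 was DE lower (-2.15 ± 0.55) and Mup-ps10 DE higher (3.00 ± 0.70) within S numbers 55 to 68.

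With LIPA added, 17 of these 25 rows had a positive log2 fold change and 4 were DE higher: Mup-ps19, Mup-ps10 (2.05 ± 0.68), Mup-ps2 (1.83 ± 0.62) and Mup-ps13 (1.51 ± 0.51). Of all 14620 tested genes, 10.3% were DE higher. DESeq2 called 7 of the 25 DE and edgeR's exact test 8. None of the 25 was DE for mice 31, 33 and 34 alone, where Mup-ps10, Mup-ps2 and Mup-ps13 were at 0.31 ± 0.56, -0.26 ± 0.38 and -0.35 ± 0.22. Of 24 tested within S numbers 55 to 68, 0 were DE. The 12 tested pseudogene rows lay on the positive side, with a median of 1.39, but for mice 31, 33 and 34 alone 2 of 12 did, with a median of -0.38. Within S numbers 55 to 68, 11 of 11 tested did, with a median of 1.08. Of the 16 coding rows that share more than 50% of their windows, 12 were on the negative side, with a median of -0.40, and Mup7 was the 1 DE. Mup9 and Mup13 were at -2.33 ± 0.85 and -1.40 ± 0.73, not DE. In FPC-LIPA against CON-GFP, Mup12 was DE lower (-2.28 ± 0.79) and Mup-ps10 DE higher (3.44 ± 0.89). For mice 31, 33 and 34 alone Mup-ps10 was at 1.77 ± 0.82 and not DE, and within S numbers 55 to 68 Mup12 was at -2.18 ± 0.89 and not DE. Apart from Mup-ps19, the 26 pseudogene rows were low and together took at most 0.672% of Mup counts in any liver.

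**Figure D4:**
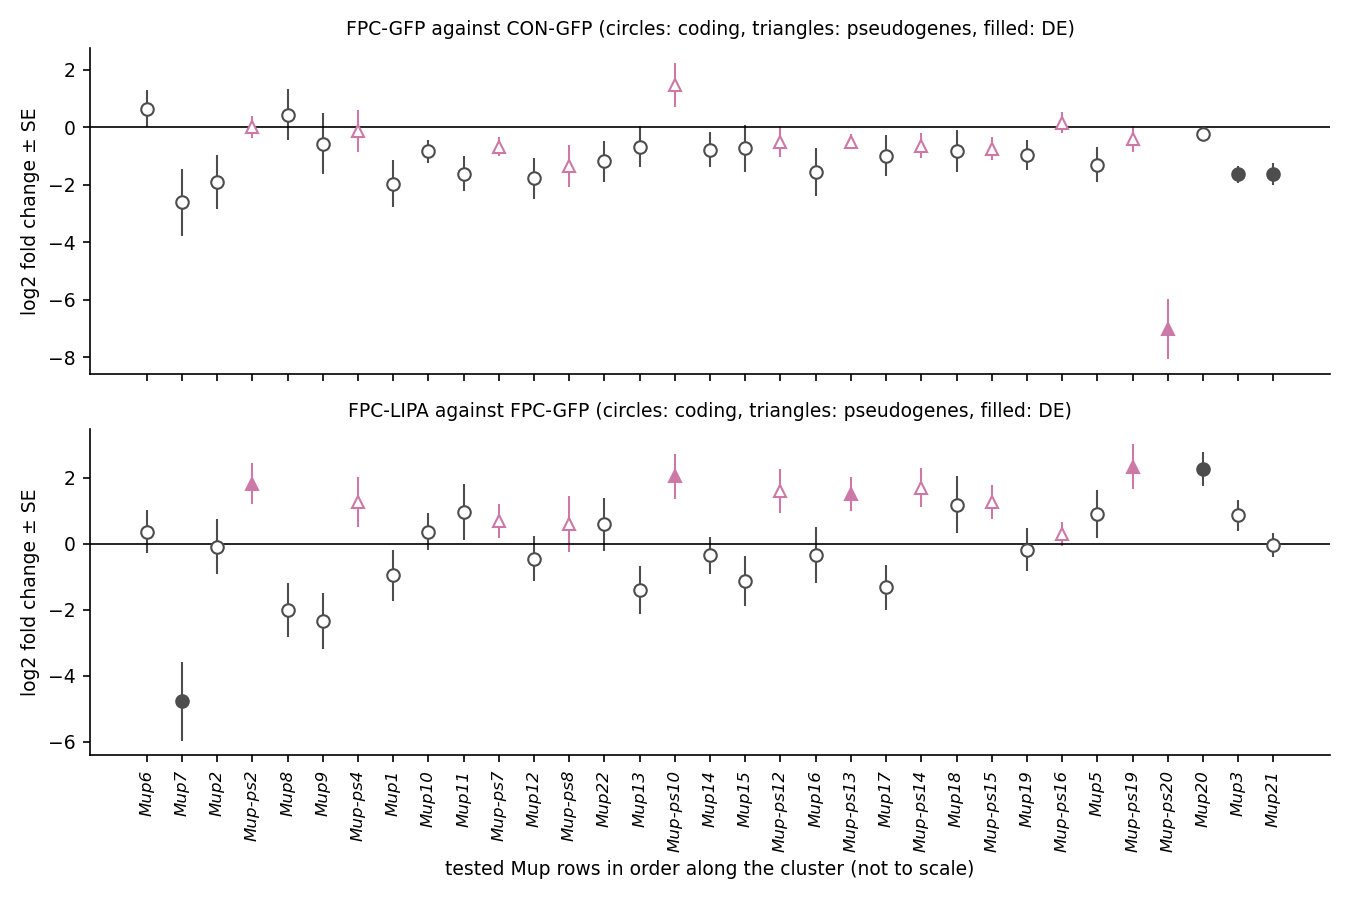
Log2 fold change with its SE (vertical axes) of the tested Mup rows in their order along chromosome 4, for FPC-GFP against CON-GFP (upper) and FPC-LIPA against FPC-GFP (lower). Circles are coding rows, triangles pseudogenes and filled symbols DE. In the lower plot, drawn from all 6 FPC-LIPA mice, the tested pseudogenes are above 0, while Mup7, Mup8 and Mup9 are below. For mice 31, 33 and 34 alone 2 of 12 pseudogenes are above 0, and 11 of 11 are within S numbers 55 to 68.

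Mice of a group differed more in some members than in others. Within CON-GFP the highest liver exceeded the lowest 2.07 times for Mup20, 2.93 times for Mup3 and 4.19 times for Mup21, but 15.0 times for Mup17, 20.2 times for Mup1, 28.7 times for Mup7 and 50.4 times for Mup2. In FPC-GFP the same ratio was 2.25 for Mup20, 2.78 for Mup3 and 129 for Mup7, and in FPC-LIPA it was 13.1 for Mup20, 8.72 for Mup3 and 10.4 for Mup7. In the GFP groups the near-identical copies thus varied more between mice on the same diet than Mup20 did.

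After group means of log2 CPM were removed, most members varied together across the 18 libraries. Pearson's r was 0.97 between Mup1 and Mup17, 0.94 between Mup1 and Mup7 and 0.93 between Mup7 and Mup17, rows that can share reads. It was 0.86 between Mup3 and Mup20 and 0.84 between Mup3 and Mup21, which share few or no windows. Mup2 was the least alike, with r from 0.18 (with Mup20) to 0.65 (with Mup7). These are descriptions over libraries that share their scaling, and depth and S number vary with them. Within FPC-LIPA, mice 36, 37 and 39 were above 31, 33 and 34 in both Mup3 and Mup20. Removing group means leaves this split in place, so r partly reflects it.

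The genes whose log2 CPM was most like that of the summed Mup rows, of 12709 other genes with a mean of at least 1 CPM, were Serpina12 (r = 0.91 over 18 libraries), Gm14327 (0.89), Ell2 (0.88), Polb (0.88) and Spcs1 (0.86). With group means removed r was 0.90, 0.90, 0.86, 0.87 and 0.87. Serpina12 encodes the secreted serpin vaspin, Ell2 a transcription elongation factor, Polb a DNA repair polymerase and Spcs1 a subunit of the signal peptidase. Serpina12 was at 51.5 to 314 CPM in CON-GFP, 34.4 to 63.2 in FPC-GFP and 30.3 to 157 in FPC-LIPA. Its highest FPC-LIPA values were in mice 36, 39 and 37, as for Mup3. Gm14327, Ell2, Polb and Spcs1 were likewise highest in these mice of FPC-LIPA. Removing group means leaves this split in place, so the likeness partly reflects it.

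Genes with male-biased expression in mouse liver were taken as a comparison, since they depend on the same pulsatile growth hormone. This list and those below were chosen with earlier results of these data known, so their counts and adjusted p-values are descriptions. Of 15 male-biased genes tested, 6 were DE lower and 0 higher in FPC-GFP against CON-GFP, beside 2.44% and 4.76% of all genes. Their median log2 fold change was -1.08, against 0.01 over all genes. Hsd3b5, a steroid dehydrogenase of male liver, was at 91.5 to 337 CPM in CON-GFP. In FPC-GFP it was at 2.96, 2.70, 2.51, 1.81, 0.481 and 106 CPM in mice 11, 12, 13, 16, 19 and 20, so that mouse 20, the highest in Mup7, was again the 1 liver in the CON-GFP range. By edgeR's quasi-likelihood test the log2 fold change of Hsd3b5 was -3.14 ± 1.04 (adjusted p = 0.0401), and -6.37 ± 0.52 within S numbers 55 to 68 (adjusted p = 0.000106).

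Selenbp2, a selenium-binding protein, had a log2 fold change of -2.37 ± 0.71 (adjusted p = 0.0255), and -2.62 within S numbers 55 to 68 (adjusted p = 0.0626). Susd4, a complement regulator, was at -1.69 ± 0.32 (adjusted p = 0.00227), with no overlap between groups, and the organic anion transporter Slco1a1 at -1.37 ± 0.48 (adjusted p = 0.0499). Cyp4a12b, a fatty acid hydroxylase, was at -1.12 ± 0.33 (adjusted p = 0.0240). Cyp2d9, a steroid hydroxylase, averaged 1684 ± 390 CPM in CON-GFP and 1004 ± 245 on the FPC diet, and its log2 fold change was -0.76 ± 0.18 (adjusted p = 0.00868), under 2-fold. Gstp1, a glutathione transferase, was at -0.25 ± 0.27 (adjusted p = 0.527).

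In FPC-LIPA against FPC-GFP, 9 of the 15 male-biased genes were DE lower and 0 higher, beside 1.11% and 10.3% of all genes. Their median was -1.43. Cyp2d9 fell to 371 ± 123 CPM, with a log2 fold change of -1.43 ± 0.27 (adjusted p = 0.0110) and no overlap between groups. It was at 404, 466, 478, 365, 375 and 138 CPM in mice 31, 33, 34, 36, 39 and 37, so that all 6 livers were low, whatever their level of Mup3 and Mup20. Cyp4a12b was at -2.13 ± 0.40 (adjusted p = 0.0110), Selenbp2 at -1.93 ± 0.43 (adjusted p = 0.0148) and Hsd3b5 at -5.04 ± 1.21 (adjusted p = 0.0180), the last set against a group in which mouse 20 was high. For mice 31, 33 and 34 alone 3 of 15 were DE lower (Cyp2d9, Cyp4a12b and Cyp4a12a), and within S numbers 55 to 68 1 of 15, Cyp2d9 (-1.14 ± 0.18, adjusted p = 0.0391). In these fits 0.761% and 0.651% of all genes were DE in either direction. Cyp4a12b has a close copy, Cyp4a12a, with which it may exchange reads.

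**Figure D5:**
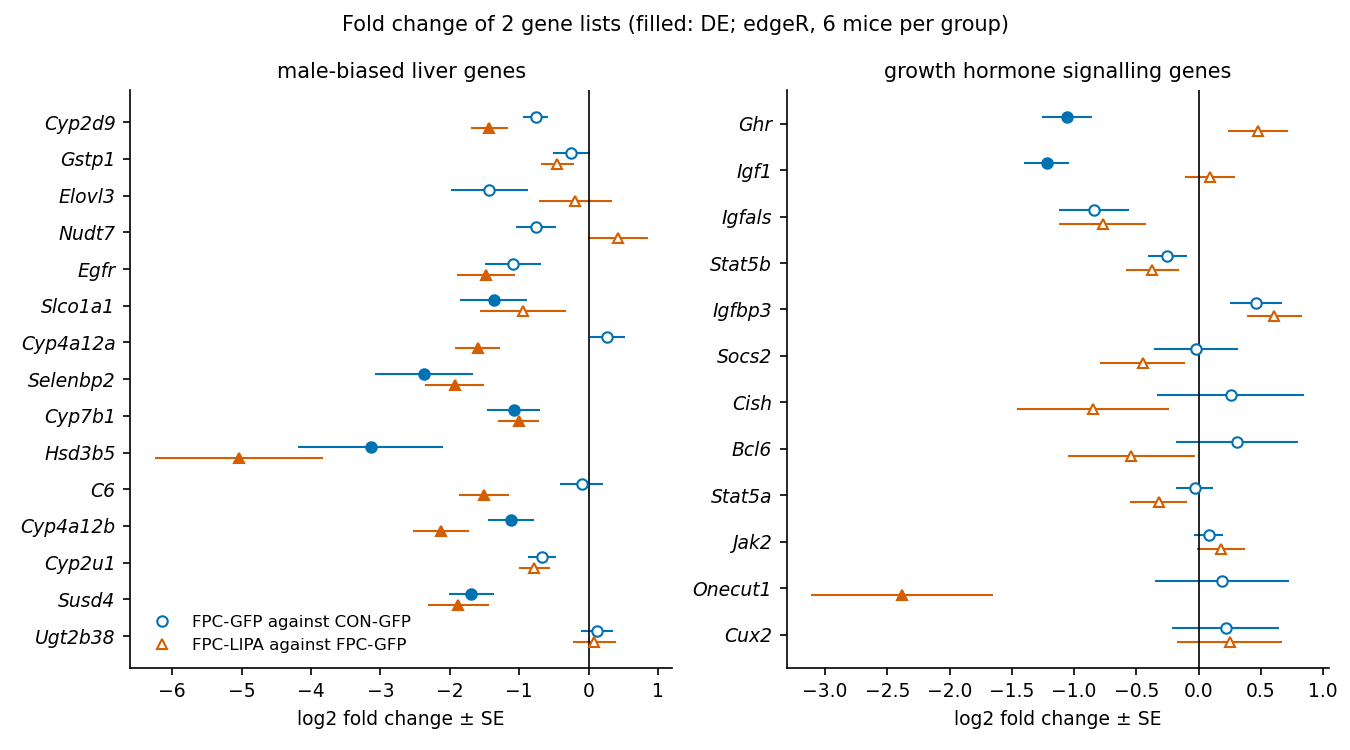
Log2 fold change with its SE (horizontal axes) of the tested male-biased genes and growth hormone signalling genes in FPC-GFP against CON-GFP (circles) and FPC-LIPA against FPC-GFP (triangles), filled where DE, from edgeR with 6 mice per group. Of the 15 male-biased genes, 13 are on the negative side in each comparison.

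Female-biased genes, which continuous growth hormone favours, were fewer above the filter. Of 13 tested, Cyp2a4 was DE higher and Atp6v0d2 DE lower on the FPC diet, beside 4.76% and 2.44% of all genes. The median log2 fold change of the 13 was 0.62. Cyp2a4, a steroid hydroxylase of female liver, was at 0.448 to 6.90 CPM in CON-GFP, and in FPC-GFP 11.2 to 283 CPM, with mouse 20 the lowest of FPC-GFP. Its log2 fold change was 5.84 ± 0.85 (adjusted p = 0.000474), though its near-identical copy Cyp2a5 makes the row uncertain. Atp6v0d2, a proton pump subunit also found in macrophages, was at -1.19 ± 0.34 (adjusted p = 0.0216) on the diet and at 1.73 ± 0.38 (adjusted p = 0.0142) with LIPA. The former was -0.86 ± 0.37 within S numbers 55 to 68 (adjusted p = 0.140). Hao2, a peroxisomal oxidase, rose with LIPA (1.85 ± 0.51, adjusted p = 0.0264), and Cyp2b9 had log2 fold changes of 0.62 ± 0.43 (adjusted p = 0.297) and 0.07 ± 0.41 (adjusted p = 0.908). With LIPA 0 of 13 were DE for mice 31, 33 and 34 alone, where Hao2 was at 0.89 ± 0.51 (adjusted p = 0.373), and 0 of 13 within S numbers 55 to 68.

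Of 12 growth hormone signalling genes, 2 were DE lower on the FPC diet and 0 higher, beside 2.44% and 4.76% of all genes. Igf1, the main growth hormone target of liver, was at 487 to 964 CPM in CON-GFP, and in FPC-GFP 199 to 337 CPM, with a log2 fold change of -1.22 ± 0.18 (adjusted p = 0.000471). Ghr, the growth hormone receptor, was at 553 to 1172 CPM and 244 to 453 CPM, with a log2 fold change of -1.06 ± 0.20 (adjusted p = 0.00232), and -0.94 within S numbers 55 to 68, under 2-fold. Neither gene overlapped between these groups. In mouse 20, where Mup7 and Hsd3b5 were high, Igf1 was at 334 and Ghr at 453 CPM, below every CON-GFP liver. Mouse 20 has an S number outside 55 to 68, and a link between these genes was not tested.

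With LIPA added, Ghr was at 477 ± 160 CPM against 343 ± 73.2 in FPC-GFP (log2 fold change 0.48 ± 0.24, adjusted p = 0.151) and Igf1 at 307 ± 72.5 against 289 ± 53.9 (0.09 ± 0.20, adjusted p = 0.755). Ghr was at 386, 262 and 370 CPM in mice 31, 33 and 34 and at 628, 554 and 659 CPM in mice 36, 39 and 37, and for the first 3 alone its log2 fold change was -0.01 ± 0.20 (adjusted p = 0.989). Onecut1, a hepatocyte factor that growth hormone regulates, was the 1 DE gene (-2.38 ± 0.73, adjusted p = 0.0359). It was at 24.0 CPM in FPC-GFP mouse 20 and 1.55 to 7.38 in the other 5. Within S numbers 55 to 68 its log2 fold change was -1.25 (adjusted p = 0.155), and for mice 31, 33 and 34 alone -1.73 (adjusted p = 0.260).

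Among 16 known regulators of Mup transcription, 0 were DE on the FPC diet by edgeR's quasi-likelihood test, DESeq2 or edgeR's exact test (8 at an unadjusted p under 0.05). Hnf4a, a nuclear receptor of hepatocytes, was at -0.98 ± 0.32 (adjusted p = 0.0425) and Cebpa, a hepatocyte leucine zipper factor, at -0.88 ± 0.20 (adjusted p = 0.0159) with LIPA, both under 2-fold. Hnf4a was at 279, 379 and 402 CPM in mice 31, 33 and 34 and at 110, 205 and 109 CPM in mice 36, 39 and 37. Fold changes for mice 31, 33 and 34 alone were -0.46 ± 0.19 for Hnf4a (adjusted p = 0.225) and -0.58 ± 0.14 for Cebpa (adjusted p = 0.0660). On the diet they were at -0.15 ± 0.18 (adjusted p = 0.550) and 0.13 ± 0.13 (adjusted p = 0.490).

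Other lipocalins were looked at as relatives in protein fold. Of 9 tested, Ptgds, a prostaglandin synthase, was the 1 DE on the FPC diet (-2.37 ± 0.69, adjusted p = 0.0225), at 0.972 ± 0.588 CPM in CON-GFP, and in FPC-GFP 0.180 ± 0.149 CPM. Ptgds was at most 0.334 CPM in FPC-GFP and was not tested between FPC-LIPA and FPC-GFP. The filter on low counts kept it mainly for its CON-GFP level. That favours a lower direction, so nothing is read from the direction of Ptgds. Within S numbers 55 to 68 it was at -2.31 ± 0.81 (adjusted p = 0.0770) and 0 of 9 were DE. Rbp4, the plasma carrier of retinol, had a log2 fold change of -0.47 ± 0.13 (adjusted p = 0.0181), and of -0.44 ± 0.16 within S numbers 55 to 68 (adjusted p = 0.0837). Ambp, the precursor of alpha-1-microglobulin, was at -0.23 ± 0.12 (adjusted p = 0.152). With LIPA, 0 of 8 were DE by edgeR's quasi-likelihood test, DESeq2 or edgeR's exact test, with 3 at an unadjusted p under 0.05.

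Genes beside the Mup cluster on chromosome 4 were looked at for a change across the region. Of 15 tested, 0 were DE on the FPC diet by any of the 3 tools (2 at an unadjusted p under 0.05), with a median log2 fold change of 0.10. Alad, an enzyme of haem synthesis, was at 0.02 ± 0.12 (adjusted p = 0.932), and Slc31a1, a copper transporter, at -0.14 ± 0.11 (adjusted p = 0.355). With LIPA 3 were DE higher, beside 10.3% of all genes: Zfp37 (1.69 ± 0.49, adjusted p = 0.0305), Cdc26 (1.07 ± 0.28, adjusted p = 0.0222) and Slc31a2 (1.01 ± 0.19, adjusted p = 0.0110). None of the 3 was DE for mice 31, 33 and 34 alone or within S numbers 55 to 68.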

How the data were processed

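Liver RNA from 18 mice (6 per group) was sequenced, and the deposited values are raw read counts per gene, made by the authors with Trimmomatic, HISAT2 2.1.0 and featureCounts (Subread) on mm10 (GRCm38). Handling of multi-mapped reads and strand is not given in the sources used here. Stranded as well as unstranded kits are named for library preparation, without saying which library had which. Mice were bought at 7 weeks, acclimatized for 1 week, fed for 16 weeks and fasted for 4 h before collection. Of 23 count columns, 5 belonged to other vectors and stay out.

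The 9 members and all gene lists were chosen with earlier results of these data known. Each comparison used its 12 libraries: genes were kept with filterByExpr, scaled by TMM and tested with edgeR 4.0.16 (quasi-likelihood, R 4.3.3), with Benjamini-Hochberg adjustment over all genes kept. DE means at least 2-fold and an adjusted p under 0.05. CPM used TMM over 18 libraries, with a prior count of 2 for log2. The summed difference is that of mean log2 CPM. Fold changes in the text are log2 with SE unless stated. For edgeR fits this SE was derived from the test, as the absolute log2 fold change over the square root of its F statistic. Limma 3.58.1 and DESeq2 1.42.0 served for support and alternatives (other scalings, tests, filters, S numbers 55 to 68, each library left out), and the scripts were tested on simulated data. Totals of 16632146 to 37739301 counts set the precision, and counts of 3 or fewer were read as at the floor. No libraries of a group agreed within sampling noise (chi-square per degree of freedom 11.9 to 480), and mice are taken as separate animals with 1 library each.

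Annotation was GENCODE M21, which held 55227 of the 55487 rows, and promoters were RefSeq's. Named were every member, every other Mup row that passed the filter, the 2 highest genes of each list by mean CPM with up to 4 DE genes of largest change on the diet and up to 3 with LIPA, and the 5 genes most like the summed Mup counts. Cell marker lists are given as sums. A gene that this rule names is not reported here.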

Additional observations from a re-analysis of the deposited data

Results flagged for a closer look

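Mup2 in FPC-GFP mouse 20 lay far from the other mice of its group, at 58.7 CPM against 2.91 to 6.98 CPM in the other 5. Its gap to the next mouse was 0.739 of the group's range on the scale of log2(CPM + 1), above Dixon's 95% critical value for 6 samples. In all, 30 groups were examined this way and 1 was singled out, and chance singles out about 1 in 20 groups. The same mouse was the highest of its group in Mup1, Mup3, Mup7, Mup10, Mup17, Mup20 and Mup21.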

How the results depend on the processing

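No member changed direction in FPC-GFP against CON-GFP under any alternative, and Mup3 and Mup21 were DE in each fit with 1 library left out. Counts of members here include Mup-ps20, which passed the filter only through CON-GFP. Mup-ps20 could not be tested with a minimum of 1 CPM in 6 libraries. Scaling by library size alone moved the median of all genes by 0.20 on the diet, -0.13 for FPC-LIPA against FPC-GFP and 0.09 for FPC-LIPA against CON-GFP, and left 1016 genes DE in the second. Without the 2-fold minimum 3410, 3102 and 3304 genes were DE in the 3 comparisons, against 1030, 1671 and 2176. Within S numbers 55 to 68, members DE were 6, 0 and 3, and genes DE were 96 for FPC-LIPA against FPC-GFP and 1107 against CON-GFP, and Mup21 (0.15) and Mup2 (1.45) reversed in the former. For FPC-LIPA 31, 33 and 34 alone, chosen after seeing the data, 116 genes and 0 members were DE against FPC-GFP, and Mup3 (-0.65), Mup10 (-1.58), Mup2 (0.05) and the summed Mup counts (-0.51) reversed. Against CON-GFP, Mup3 (-2.29) and Mup10 (-2.40) became DE and Mup20 (0.49) was no longer DE. With 1 library left out, DE genes ranged from 857 to 1148 on the diet, 856 to 2612 for FPC-LIPA against FPC-GFP and 1760 to 2685 against CON-GFP. DE members ranged from 3 to 6, 1 to 2 and 5 to 7, and summed Mup differences from -1.49 to -0.95, 0.36 to 1.06 and -0.86 to -0.16. In FPC-LIPA against FPC-GFP the gene count moved over 1.5 times when mouse 11 (1028), 12 (1049), 20 (1026), 33 (2612), 36 (856), 39 (950) or 37 (902) was left out. There Mup21 ranged from -0.19 to 0.30 and reversed when mouse 11 (0.05), 20 (0.30), 33 (0.10) or 34 (0.09) was left out. Mup1 ranged from -1.39 to 0.11 (mouse 20 left out), and Mup2 from -0.79 to 1.44, above 0 without mouse 20 (1.44), 31 (0.13), 34 (0.15) or 36 (0.11). Mup17 in FPC-LIPA against CON-GFP was not DE without CON-GFP 2 (-1.98) or 3 (-1.86) or FPC-LIPA 31 (-2.21), 34 (-2.20) or 36 (-2.26), and Mup2 became DE without FPC-LIPA 33 (-2.74). The cause was not tested for any of these. No paired analysis was possible because mouse numbers differ between groups.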
